A study of Mus musculus with 7 samples.

Results

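Apln encodes the precursor of apelin, a small secreted peptide, and Aplnr encodes its receptor, a G protein-coupled receptor of the cell surface. These 2 genes of the 23284 in the count files were taken by their symbols. They were chosen because an earlier reading of the same contrast had placed the receptor, and with it the ligand, among the genes higher in the mutant, so their own difference between genotypes is given as a description without a test. Expression was measured in the atrioventricular canal, the cuff that joins the atrial to the ventricular chamber of the embryonic heart and in which the valve cushions form, in outbred NMRI embryos of 18 to 23 somites (embryonic day 9.5 in the sample titles and slightly younger in the stage label). The mutant group was Hand2 d/d, a germline null in which Cre had removed all of the coding part of Hand2, and the other group was wild type. Each library was 1 pool of 4 hand-dissected canals, with 4 null pools (numbered 1 to 4) and 3 wild-type pools (numbered 2 to 4), matched on somite stage and sex ratio per the labels. A pool mixes all cells of the canal and of whatever tissue was cut with it. p-values measure the spread between these pools.

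Apelin is made by endothelial cells, above all by the tip cells that lead a growing vessel, and low oxygen is known to raise its gene. Its receptor is carried by early mesoderm and endothelium, and in later vessels mainly by veins. A second peptide, encoded by Apela (also called Elabela or Toddler), binds the same receptor earlier in development, and its loss disturbs heart development in part of the embryos. Bound receptor signals through inhibitory G proteins and arrestins, and among the reported downstream steps are AKT, nitric oxide synthase, and the MEF2 and KLF2 factors.

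The 7 libraries held 27905601 to 44860753 reads in genes. Levels are in counts-per-million units (CPM), relative to a library's gene reads, and the floor of 3 reads came to 0.0669 to 0.108 CPM. Hand2 itself was 0.422 ± 0.259 CPM in null pools (SD, n = 4) and 44.2 ± 2.76 CPM in wild type (SD, n = 3), so all 7 libraries matched their labels. Reads in no gene made up 14.2% of null pool 2 against 7.31% to 9.998% elsewhere, and haemoglobin made up 2.18% of the gene reads of wild-type pool 4 against 0.554% to 1.43% elsewhere. The canal markers Tbx2, Tbx3, Bmp2 and Msx2 were present in all 7 libraries and none was called different (edgeR; 0 also at an unadjusted p under 0.05 and in DESeq2). Of all genes tested edgeR called 6.24%, so the lack of calls among these few genes does not show that the canals were alike. The summed level of 23 endothelial markers was 1001 to 1105 CPM in null and 658 to 762 CPM in wild-type libraries, without overlap. In pools, more cells of a type and more RNA per cell cannot be told apart.

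Apln, the ligand gene, was scarce in wild-type canals and higher in every null pool. In wild-type pools 2, 3 and 4 it was counted 57, 11 and 6 times, which is 1.27, 0.381 and 0.215 CPM. In null pools 1 to 4 it was counted 272, 170, 207 and 154 times, which is 7.28, 5.18, 7.22 and 3.96 CPM. The groups did not overlap, and the lowest null pool stood above the highest wild-type pool by a wide margin. At these depths the 95% Clopper-Pearson intervals were 0.962 to 1.65 CPM for wild-type pool 2, 0.0789 to 0.468 CPM for wild-type pool 4 and 3.36 to 4.63 CPM for null pool 4, counting error only.

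The mean of Apln was 5.91 ± 1.63 CPM in null (SD, n = 4) and 0.622 ± 0.568 CPM in wild type (SD, n = 3), which gave a log2 fold change (log2FC, null over wild type) of 3.16 (SE 0.505). The size of that fold rested on wild-type pool 2, the only wild-type pool with more than 11 reads. Without it log2FC was 4.27 (SE 0.483). Apln reached the default limit for testing only through the null pools: all 4 were above the limit of 0.304 CPM, which 3 libraries had to reach, but only 2 of the 3 wild-type pools were.

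Aplnr, the receptor gene, was counted more often than its ligand in each library and was also higher in every null pool. Wild-type pools 2, 3 and 4 held 3.66, 2.53 and 1.61 CPM (164, 73 and 45 reads). Null pools 1 to 4 held 9.99, 16.3, 9.91 and 18.6 CPM (373, 536, 284 and 724 reads). The groups did not overlap. The means were 13.7 ± 4.43 CPM in null (SD, n = 4) and 2.60 ± 1.02 CPM in wild type (SD, n = 3), or log2FC 2.35 (SE 0.314). In GRCm38 Apln lies on the minus strand of chromosome X and Aplnr on the plus strand of chromosome 2, and the exons of no other gene overlap either. With any 1 library left out the log2FC of Aplnr lay between 2.10 and 2.68.

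The null pools fell into the same pairs for ligand and receptor, in opposite order. Null pools 1 and 3 had the most Apln and the least Aplnr, while null pools 2 and 4 had the least Apln and the most Aplnr. The log2 difference of Apln from Aplnr was thus -0.43 in null pools 1 and 3, but -1.57 in pool 2 and -2.10 in pool 4. In wild type both genes had the same order, with the most in pool 2 and the least in pool 4, though pools 3 and 4 overlapped within counting error. The split among the 4 null pools was noticed in the data and was not tested.

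**Figure D1:**
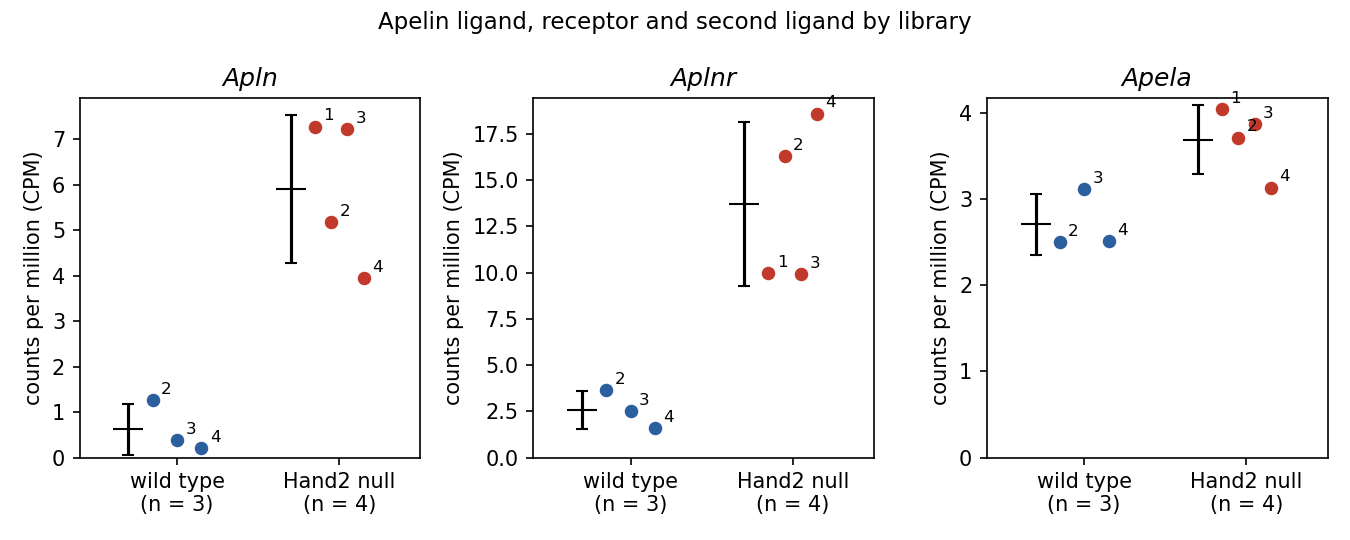
Level (CPM) of Apln, Aplnr and Apela in each library, with the library's replicate number beside its point and the group mean ± SD as a black bar. Null pools lie above wild-type pools for all 3 genes, by the narrowest margin for Apela, and null pools 1 and 3 against 2 and 4 stand in opposite order for Apln and Aplnr.

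Among all 14290 genes tested, 587 were called higher in the null (4.11%) and 305 lower (2.13%), or 892 in either direction (6.24%), by the edgeR quasi-likelihood test at a Benjamini-Hochberg adjusted p under 0.05. Null and wild-type libraries did not overlap, with the null higher, in 11.6% of them and with the null lower in 10.3%. Both Apln and Aplnr are in these groups, from which nothing is read because the contrast chose them.

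Apela, the second ligand, was not among the genes chosen, and it did not pass the test. Its row carries the older symbol Gm10664. It was counted at 4.04, 3.71, 3.87 and 3.13 CPM in null pools 1 to 4 and at 2.497, 3.11 and 2.51 CPM in wild-type pools 2 to 4. The groups were separated only by the gap between 3.13 CPM in null pool 4 and 3.11 CPM in wild-type pool 3. The log2FC was 0.43 (SE 0.249, edgeR adjusted p = 0.312, and 0.292 to 0.585 over the alternatives), and the value was positive in every alternative. In the GRCm38 annotation its exons overlap those of Gm45886 on the same strand, so its counts are uncertain.

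Per kilobase of annotated exon, the levels of the 3 genes lay closer together in the null. In wild type Apela led at 2.70 ± 0.351 CPM per kb, followed by Aplnr at 0.702 ± 0.277 and Apln at 0.198 ± 0.180 CPM per kb (SD, n = 3). In the null Aplnr (3.70 ± 1.20 CPM per kb) and Apela (3.68 ± 0.394 CPM per kb) did not differ beyond their spread, and Apln followed at 1.88 ± 0.518 CPM per kb (SD, n = 4). Among 12919 tested genes with a length, the level of Apln per kb stood at percentile 10.3 in wild type and 38.0 in the null. Aplnr stood at percentile 24.3 and 51.9, and Apela at 46.6 and 51.8. The general endothelial adhesion genes Cdh5 (13.9 CPM per kb in the null) and Pecam1 (10.7 CPM per kb) remained well above Aplnr. Lengths are from another build than the counts and treat all annotated exons as used.

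Apln lies on the X chromosome, so the sex makeup of the pools was set beside it. Xist, transcribed from the inactive X, was 45.9, 99.2, 51.0 and 16.3 CPM in null pools 1 to 4 and 47.9, 47.8 and 27.3 CPM in wild-type pools 2 to 4. The Y-linked gene Ddx3y was 59.4, 42.9, 58.0 and 74.7 CPM in null and 35.7, 44.8 and 59.5 CPM in wild type. Null pool 4, with the least Apln among the null pools, had the most Ddx3y and the least Xist, and wild-type pool 2, with the most Apln among wild types, had the least Ddx3y. Null pool 2 went the other way, with the most Xist and the least Ddx3y of the null pools but less Apln than null pools 1 and 3. With the mean log2 level of Y-linked genes as a covariate the log2FC of Apln was 4.14 (SE 0.468) and that of Aplnr 2.46 (SE 0.394).

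The letters upstream of the ligand genes were read because genes known to be raised by low oxygen often carry the core of the hypoxia response element, ACGTG or GCGTG, and because HAND2 is a basic helix-loop-helix factor of a class that binds E-boxes, CANNTG. RefSeq sequence of build GRCm38.p6 was used, 250 bases before the start site. It matched Apln and Apela and not Aplnr. Apln is at chrX:48034854-48035103 on the minus strand and Apela at chr8:65037337-65037586 on the minus strand. For contrast 2 genes of the low-oxygen list are shown, the oxygen sensor Egln3 at chr12:54203875-54204124 on the minus strand and the adrenomedullin gene Adm at chr7:110627407-110627656 on the plus strand. Capitals mark ACGTG and GCGTG (read as CACGC where it lies on the other strand) and CANNTG.
Apln: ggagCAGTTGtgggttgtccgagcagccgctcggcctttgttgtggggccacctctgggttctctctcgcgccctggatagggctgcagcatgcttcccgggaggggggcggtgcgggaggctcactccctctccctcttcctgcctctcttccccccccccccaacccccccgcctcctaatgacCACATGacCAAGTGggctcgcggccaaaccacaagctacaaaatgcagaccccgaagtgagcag
Apela: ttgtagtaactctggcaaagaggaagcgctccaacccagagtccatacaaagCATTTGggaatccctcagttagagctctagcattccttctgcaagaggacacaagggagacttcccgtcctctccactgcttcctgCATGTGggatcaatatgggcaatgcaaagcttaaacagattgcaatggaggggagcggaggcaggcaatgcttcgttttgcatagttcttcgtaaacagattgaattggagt
Egln3: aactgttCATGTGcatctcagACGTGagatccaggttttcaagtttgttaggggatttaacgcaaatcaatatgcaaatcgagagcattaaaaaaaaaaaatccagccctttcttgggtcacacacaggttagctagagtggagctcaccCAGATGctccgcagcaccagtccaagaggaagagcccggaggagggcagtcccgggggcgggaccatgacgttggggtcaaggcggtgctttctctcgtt
Adm: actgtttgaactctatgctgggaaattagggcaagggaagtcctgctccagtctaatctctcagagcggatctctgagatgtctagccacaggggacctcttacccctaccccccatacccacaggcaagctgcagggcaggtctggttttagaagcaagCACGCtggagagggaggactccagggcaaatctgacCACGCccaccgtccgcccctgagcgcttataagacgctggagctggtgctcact
The Apln window held neither ACGTG nor GCGTG on either strand, nor did that of Apela. The Apln window held 3 matches to CANNTG, with CAGTTG starting 246 bases, then CACATG 64 bases and CAAGTG 56 bases before the start. Egln3 held ACGTG 229 bases before its start, and Adm held GCGTG on the other strand at 90 and at 54 bases. At least 1 of ACGTG and GCGTG stood in some window of 41.5% of 27025 genes, and CANNTG in 69.3% (CACGTG would count for ACGTG and CANNTG alike). Of the 28 low-oxygen genes 25 had a window, and all 25 held ACGTG or GCGTG, many of them known targets of the low-oxygen response. A match is a description of letters and not of binding. Letters farther upstream or inside the gene were not read, so absence from a window is not absence from the gene.

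The share of other apelin pathway genes called by edgeR at an adjusted p under 0.05 was near that of all genes. Of 43 listed genes for processing, partner receptors, signal transduction and downstream steps, 35 were tested, of which 1 rose and 1 fell, against 4.11% and 2.13% of all genes. Without Ace, whose testing is described with its values, 34 remained, with 0 higher and 1 lower. Their median log2 fold change was -0.03, against 0.02 over all genes tested. At an unadjusted p under 0.05 there were 7 higher and 7 lower. DESeq2 called 2 higher and 4 lower, beside 993 and 768 among all genes. The share of all genes at an unadjusted p under 0.05 is not given. Such counts are therefore not compared with all genes, here or for the lists below.

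Among the peptidases, Ace was higher in every null pool. Ace encodes angiotensin-converting enzyme, an endothelial surface peptidase that makes angiotensin II. It was counted 158, 111, 67 and 86 times in null pools 1 to 4 and 10, 0 and 9 times in wild-type pools 2 to 4. The mean was 3.04 ± 0.952 CPM in null (SD, n = 4) and 0.182 ± 0.165 CPM in wild type (SD, n = 3), with log2FC 4.01 (SE 0.629). Like Apln, Ace was tested only through the null pools, since 1 of the 3 wild-type pools and all 4 null pools reached 0.304 CPM, so its call supports nothing and its p is left out. In GRCm38 an exon of Gm11651 on the other strand overlaps Ace, and unstranded reads of both genes cannot be separated. The convertase Furin, a proprotein-cleaving enzyme, had a log2FC of -0.55 (SE 0.174, edgeR adjusted p = 0.0815) and the neprilysin gene Mme, which degrades peptides including apelin, -0.24 (SE 0.212, adjusted p = 0.531). Another convertase, Pcsk6, was at -1.28 (SE 0.387, adjusted p = 0.0705), and it was called lower without the filter on low counts (0.0488), without null pool 4 (0.0350) and without wild-type pool 4 (0.0108). Furin was called lower without null pool 3 (0.0121), and DESeq2 called both (adjusted p = 0.0332 for Furin and 0.0111 for Pcsk6). Furin, Mme and Pcsk6 were named after their values were seen.

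No partner receptor was called by edgeR, beside 4.11% higher and 2.13% lower of all genes, while 1 of the 2 tested was lower at an unadjusted p under 0.05 and in DESeq2. The kappa opioid receptor gene Oprk1, a reported partner of the apelin receptor, was 4.52 ± 1.71 CPM in null (SD, n = 4) and 9.94 ± 5.60 CPM in wild type (SD, n = 3), with edgeR adjusted p = 0.0717. Agtr2, a receptor for angiotensin, had 0 reads in all 7 libraries. None of the 11 G protein, arrestin and receptor kinase genes was called by edgeR with all libraries or by DESeq2, with 1 higher and 1 lower at an unadjusted p under 0.05. With 4.11% and 2.13% of all genes called by edgeR, nothing is read from the lack of calls in lists this short. Gna13, a G protein alpha subunit named after its values were seen, was at 0.51 (SE 0.182, edgeR adjusted p = 0.110) and was called higher with the replicate block (0.0470) and without null pool 4 (0.0427). The most abundant, Gnaq, had a log2FC of 0.02 (SE 0.140, edgeR adjusted p = 0.958), which turned to -0.0037 with upper-quartile scaling.

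Of 16 tested downstream genes 1 fell and none rose by edgeR at an adjusted p under 0.05, beside 2.13% lower and 4.11% higher of all genes. At an unadjusted p under 0.05 there were 5 higher and 3 lower, and DESeq2 called 1 higher and 1 lower. The gene that fell by edgeR was Klf2, an endothelial transcription factor raised by blood flow. It was 3.08, 3.99, 5.44 and 2.80 CPM in null pools 1 to 4 and 8.14, 8.34 and 8.49 CPM in wild-type pools 2 to 4. The groups did not overlap, and Klf2 went the other way from the receptor. Of the 16 downstream genes 2 did not overlap with the null lower and 4 with the null higher, beside 10.3% and 11.6% of all genes. The log2 fold change of Klf2 was -1.14 (SE 0.249, edgeR adjusted p = 0.0205). The call was lost with the Y-linked covariate (adjusted p = 0.0721) and when null pool 1 (0.0672) or 2 (0.0529), or wild-type pool 2 (0.0840) or 3 (0.0803), was left out, while the log2 value stayed between -1.38 and -1.02 with 1 library left out.

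**Figure D2:**
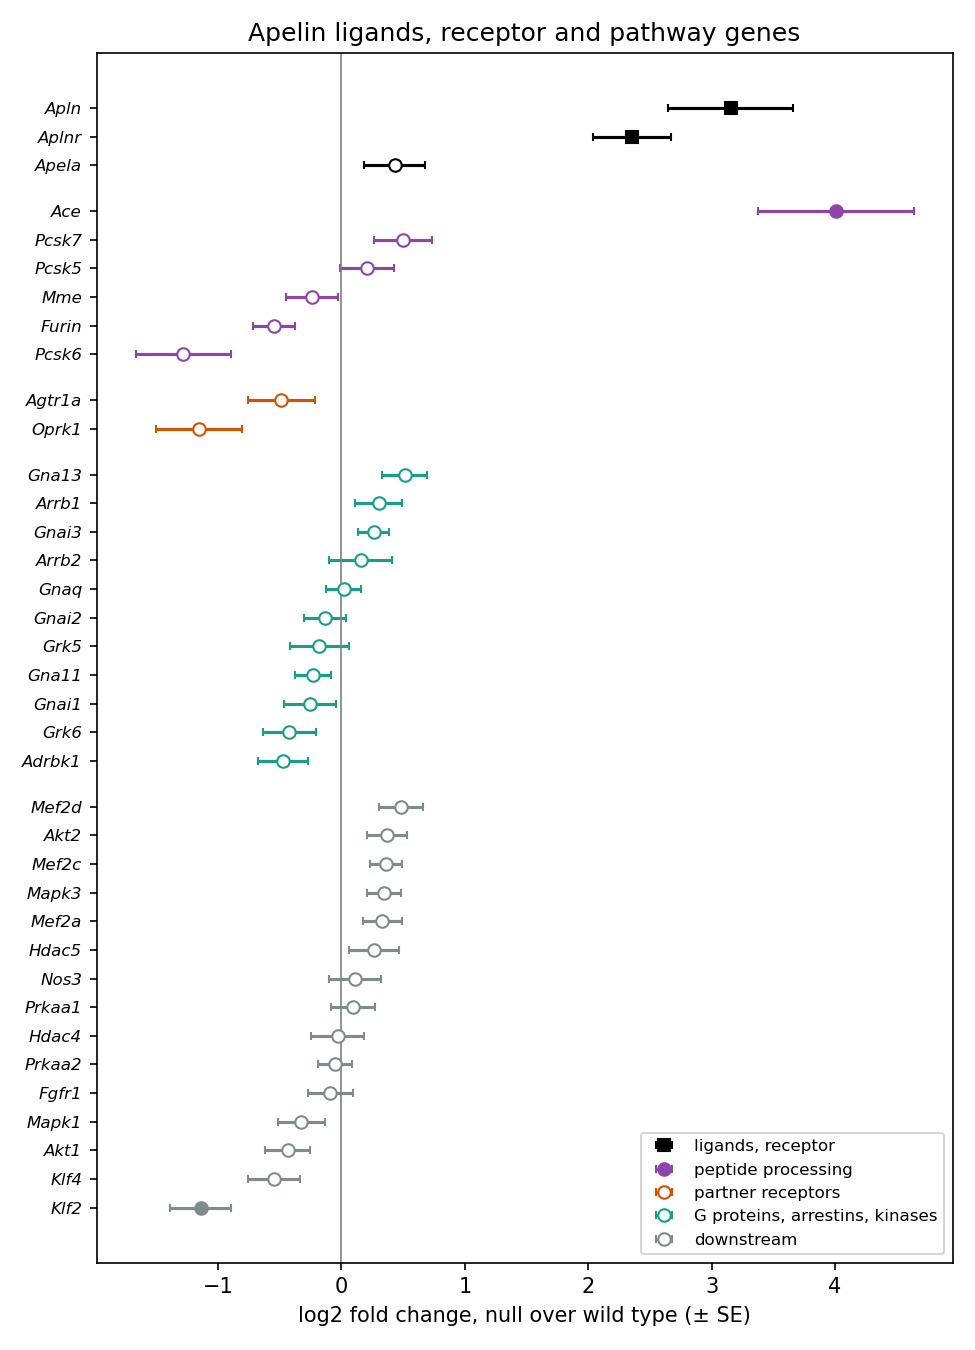
Log2 fold change (null over wild type, ± SE) of Apln and Aplnr (squares, described without a test) and of Apela and 34 of the 35 tested pathway genes (circles, filled where called by edgeR), grouped by role. Ace at 4.01 and Klf2 at -1.14 are the called pathway genes, and the others shown lie between -1.28 and 0.51. Ace was tested only through the null pools, so its call supports nothing.

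Endothelial genes were set beside the receptor, since Aplnr is an endothelial gene. Of 23 general endothelial markers, 10 rose and none fell (edgeR; 16 higher and 1 lower at an unadjusted p under 0.05, 12 and 0 in DESeq2), with a median log2FC of 0.51 against 0.02 over all genes, of which 4.11% were called higher and 2.13% lower. Clec14a, a C-type lectin of endothelium, stood at 55.5 ± 11.1 CPM in null (SD, n = 4) against 13.1 ± 4.54 CPM in wild type (SD, n = 3), with log2FC 2.06 (SE 0.238, edgeR adjusted p = 0.000527). The receptor kinase gene Tie1 rose by 1.10 log2 units (SE 0.168, adjusted p = 0.00288) and the junction gene Esam by 1.11 (SE 0.179, adjusted p = 0.00396). Pecam1 rose by 0.74 (SE 0.142, adjusted p = 0.0107) and lost its call when null pool 1 (adjusted p = 0.0509) or wild-type pool 2 (0.0873) or 3 (0.0789) was left out. Cdh5, the VE-cadherin gene, was at 0.51 (SE 0.171, adjusted p = 0.0940).

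Relative to these markers Aplnr was also higher in every null pool, which is given without a test. Its log2(CPM + 0.5) minus their mean was -1.76, -0.92, -1.66 and -0.92 in null pools 1 to 4. In wild-type pools 2, 3 and 4 it was -2.47, -2.81 and -3.15, all below the null pools. The means were -1.31 ± 0.46 (SD, n = 4) and -2.81 ± 0.34 (SD, n = 3), a difference of 1.495 on the log2 scale. Folds of the 23 markers ran from -0.34 to 2.11 on the log2 scale, against 2.35 for Aplnr. Aplnr was chosen because it was higher in this contrast, so nothing is read from its place above them. Acvrl1, an endothelial receptor gene outside these markers, was at 2.58. Apln minus the same markers was -2.44 ± 0.42 in null (SD, n = 4) and -4.33 ± 0.55 in wild type (SD, n = 3). In wild type the order of the endothelial mean (4.52, 4.40 and 4.23 in pools 2, 3 and 4) was the order of both members. Counting error leaves the order of wild-type pools 3 and 4 open for both. Their 95% Clopper-Pearson intervals were 0.190 to 0.681 and 0.0789 to 0.468 CPM for Apln, and 1.98 to 3.17 and 1.18 to 2.16 CPM for Aplnr. The match of order was not tested. In the null the endothelial mean was 5.15, 4.99, 5.03 and 5.17, which is not the order of Aplnr.

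Endocardial, arterial and venous lists were described for the vessel types in which the receptor is known, beside the 4.11% higher and 2.13% lower of all genes and their median of 0.02. Of 5 endocardial genes 1 rose and none fell (1 and 0 also at an unadjusted p under 0.05 and in DESeq2), namely Tmem100 (1.12, SE 0.229, adjusted p = 0.0151), a membrane protein gene that acts downstream of ALK1. Of 12 arterial genes 7 rose and none fell (7 and 0 also at an unadjusted p under 0.05 and in DESeq2), with a median of 1.07. Acvrl1, which encodes ALK1, an endothelial receptor for bone morphogenetic proteins, rose by 2.58 (SE 0.313, adjusted p = 0.000684), the connexin gene Gja4 by 1.24 (SE 0.245, adjusted p = 0.0127) and the Notch ligand gene Dll4 by 1.51 (SE 0.332, adjusted p = 0.0209). With 1 library left out the arterial count was 2 for null pool 1 and for wild-type pool 2, and 3 for wild-type pools 3 and 4, and it was 3 with the Y-linked covariate. Gja4 lost its call with that covariate (adjusted p = 0.0519). Dll4 lost its call when null pool 1 (0.0686) or wild-type pool 2 (0.0907) was left out. Of 7 venous genes 1 rose, the scavenger receptor gene Stab1 (0.96, SE 0.227, adjusted p = 0.0291), and none fell (4 and 0 at an unadjusted p under 0.05, 2 and 0 in DESeq2). Stab1 lost its call when any of null pools 1 and 2 and wild-type pools 3 and 4 was left out (0.0670 to 0.109), and Tmem100 when null pool 1 (0.0538) or wild-type pool 2 (0.0628) was.

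Tip cell genes were set beside the ligand. Of 16, 7 rose and none fell (edgeR; 10 and 0 at an unadjusted p under 0.05, 8 and 0 in DESeq2), with a median of 0.57, while 4.11% of all genes were called higher and 2.13% lower. Kcne3, a potassium channel subunit enriched in tip cells, was 6.96, 8.95, 9.28 and 8.17 CPM in null pools 1 to 4 and 0.424, 0.138 and 0.466 CPM in wild-type pools 2 to 4 (log2FC 4.55, SE 0.348). The binding protein gene Igfbp3 rose by 2.46 (SE 0.299, adjusted p = 0.000684) and Adm, the gene of the vascular peptide adrenomedullin, by 1.79 (SE 0.239, adjusted p = 0.00115). Esm1, which encodes endocan, and Pdgfb, the ligand gene that draws pericytes, were at log2FC 4.04 (SE 0.629) and 2.02 (SE 0.329), and they were named after their values were seen. Kcne3, Esm1 and Ramp3 were tested only through the null pools, with 2, 0 and 2 of the 3 wild-type pools at 0.304 CPM or more. Of the other 13 tip cell genes 5 were called higher and 0 lower. Cxcr4, a chemokine receptor gene of tip cells, was at 0.21 (adjusted p = 0.793), and Angpt2, an antagonist ligand of TEK, at 1.44 (adjusted p = 0.101).

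Most genes of the low-oxygen list were higher in the null. Of 28, 22 rose and none fell (edgeR; 27 and 0 at an unadjusted p under 0.05, 26 and 0 in DESeq2), with a median of 1.38, again beside 4.11% and 2.13% of all genes. Bhlhe40, a transcriptional repressor gene, rose by 2.90 (SE 0.191, adjusted p = 2.04e-05), the stanniocalcin Stc2 by 3.14 (SE 0.250, adjusted p = 5.53e-05) and the prolyl hydroxylase P4ha2 by 2.02 (SE 0.185, adjusted p = 0.000148). Folds of the 28 genes ran from -0.09 to 3.14 on the log2 scale, against 3.16 for Apln. Apln was chosen with this contrast known, so nothing is read from its place above them. Adm stands in the tip cell and low-oxygen lists, Dll4 and Unc5b in the tip cell and arterial lists, Flt4 in the tip cell and venous lists and Cd34 in the tip cell and endothelial lists, so the counts overlap. All lists were drawn up with this contrast known, so their counts are no independent evidence of a direction.

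Apln had the same order as the low-oxygen genes among the null pools but not among wild types. The mean log2(CPM + 0.5) of the 28 genes was 7.43, 7.20, 7.29 and 6.88 in null pools 1 to 4, which is the order of Apln in those pools. The 95% Clopper-Pearson intervals of Apln overlapped in null pools 1 and 3 (6.44 to 8.20 and 6.27 to 8.27 CPM), so counting error leaves their order open. The match of order was not tested. In wild-type pools 2, 3 and 4 it was 5.72, 5.68 and 5.81, while Apln fell from 1.27 to 0.215 CPM. Apln minus that mean was -4.47, -4.69, -4.34 and -4.73 in the null and -4.90, -5.86 and -6.29 in wild type. The difference of the means was 1.13 on the log2 scale with 0.5 added to each CPM, but 0.23 with 2 added, so its size depends on the number added.

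**Figure D3:**
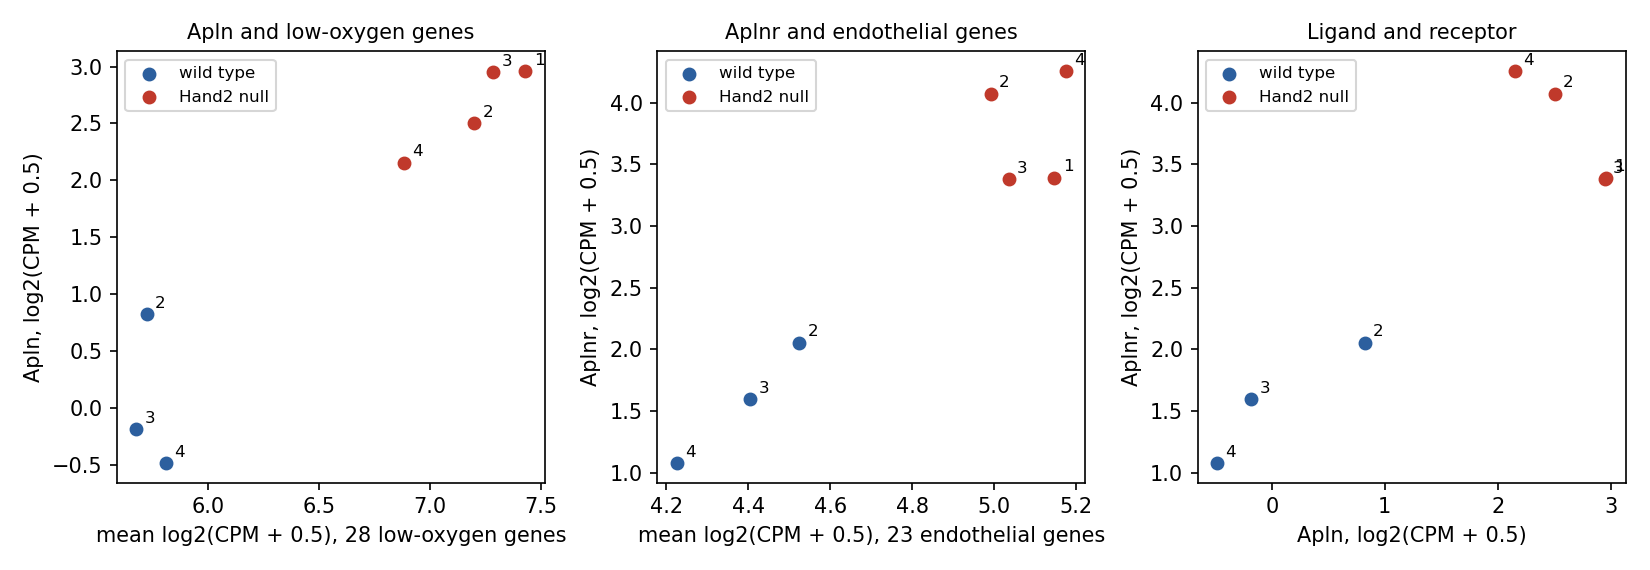
Each point is 1 library, labelled by replicate number, on log2(CPM + 0.5) scales: Apln against the mean of 28 low-oxygen genes, Aplnr against the mean of 23 endothelial genes, and Aplnr against Apln. Null pools lie above wild-type pools on every axis, and in the third panel null pools 2 and 4 lie above and to the left of null pools 1 and 3.

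**Figure D4:**
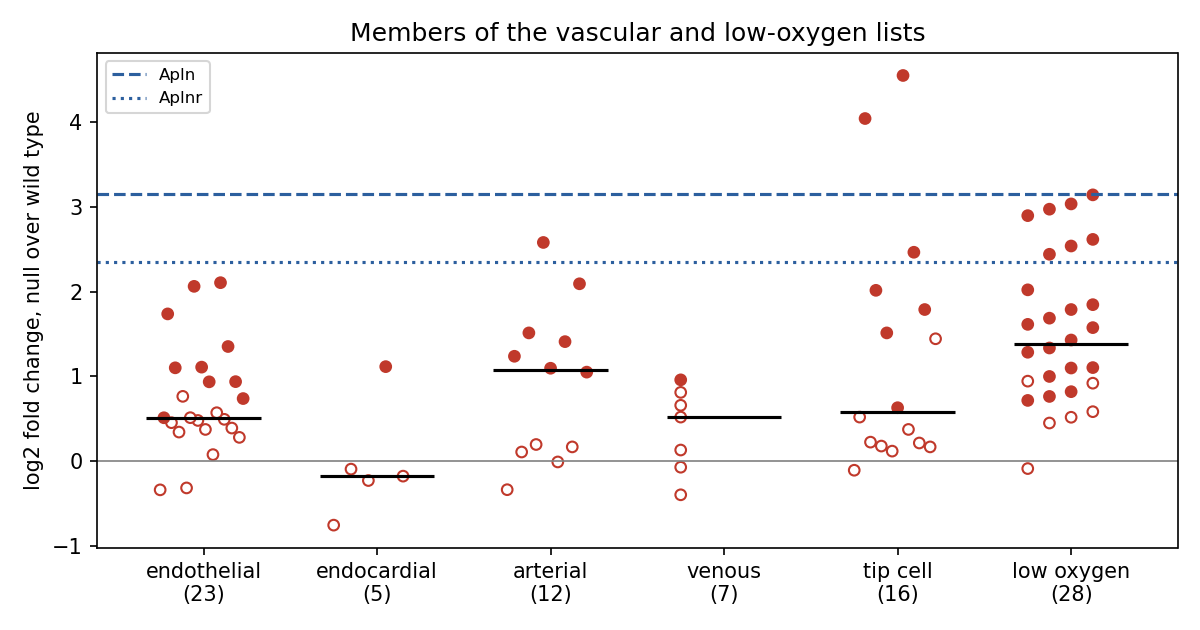
Log2 fold change (null over wild type) of every gene in 6 lists (points, filled where called higher by edgeR; bars are medians), with Apln and Aplnr as horizontal lines. The endothelial and low-oxygen medians are 0.51 and 1.38, the lines for Apln and Aplnr stand at 3.16 and 2.35, and Kcne3 and Esm1 lie above both lines. Kcne3 and Esm1 were tested only through the null pools, so their calls support nothing.

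Markers of other tissues that a dissected canal can hold were called in both directions, beside 2.13% of all genes lower and 4.11% higher. Of 5 cushion mesenchyme markers 4 fell, and their sum was 57.3 to 78.1 CPM in null and 105 to 248 CPM in wild-type libraries. Of 7 erythroid markers tested 1 fell, and the sum of all 9 was 5610 to 14535 CPM in null and 9345 to 22073 CPM in wild type, with Hba-a1 and Hba-a2 at 0. Of 5 macrophage markers 4 were tested, 1 rose and 1 fell, and the sum of all 5 was 8.83 to 13.6 CPM and 12.1 to 13.4 CPM. Of 7 foregut markers 2 of the 5 tested rose, Krt8 and Krt18, and their sum, mostly these keratins, was 284 to 360 CPM in null and 163 to 188 CPM in wild type. The epithelial genes Epcam and Cdh1 were not called but reached their highest levels in null pool 4, at 4.88 and 2.57 CPM, against at most 2.43 and 1.11 CPM in wild type. The endodermal genes Foxa2 and Shh were under the filter. Shh had 20 reads in null pool 4 (0.514 CPM), 0 to 3 in the other null pools and 0 in each wild-type pool. The other foregut markers were highest in other null pools. These were Foxa2 (0.304 CPM), Sox2 (0.731 CPM) and Krt18 (187 CPM) in null pool 2, and Krt8 (182 CPM) in null pool 3. Null pool 4 also had the most Aplnr and the least Apln of the null pools. None of 5 epicardial markers was called by edgeR (2 higher at an unadjusted p under 0.05, 0 in DESeq2). Of 8 heart muscle markers 1 rose and 1 fell. The part of these tissues in the levels of Apln and Aplnr was not tested.

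The genes whose pattern over the 7 libraries was most like each member were found from the root mean square difference of log2(CPM + 0.5) after centring each gene on its own mean, among 12907 genes. Closest to Apln were Stc1, a stanniocalcin (0.275), Kbtbd11, a kelch-repeat gene (0.292), Igfbp3 (0.321), Egln3 (0.354) and Cox4i2, an oxygen-regulated subunit of cytochrome c oxidase (0.358). Stc1 was 65.9, 47.1, 62.7 and 46.0 CPM in null pools 1 to 4 and 16.3, 10.7 and 9.28 CPM in wild-type pools 2 to 4. It was high in null pools 1 and 3 and highest among wild types in pool 2, as Apln was.

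Closest to Aplnr were Acvrl1 (0.336), Rab39, a small GTPase gene (0.337), the occludin gene Ocln (0.361), Ticam2, an adaptor of Toll-like receptors (0.364), and Kit, the stem cell factor receptor gene (0.396). Acvrl1 was 12.1, 8.59, 7.15 and 11.1 CPM in null and 2.23, 1.56 and 0.968 CPM in wild type, with the wild-type order of Aplnr but not its null order. Apln and Aplnr differed from each other by 0.601, which put Aplnr at place 41 for Apln and Apln at place 81 for Aplnr. With 2 groups and 7 libraries the measure mostly finds genes of a like fold, so it is a description only.

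**Figure D5:**
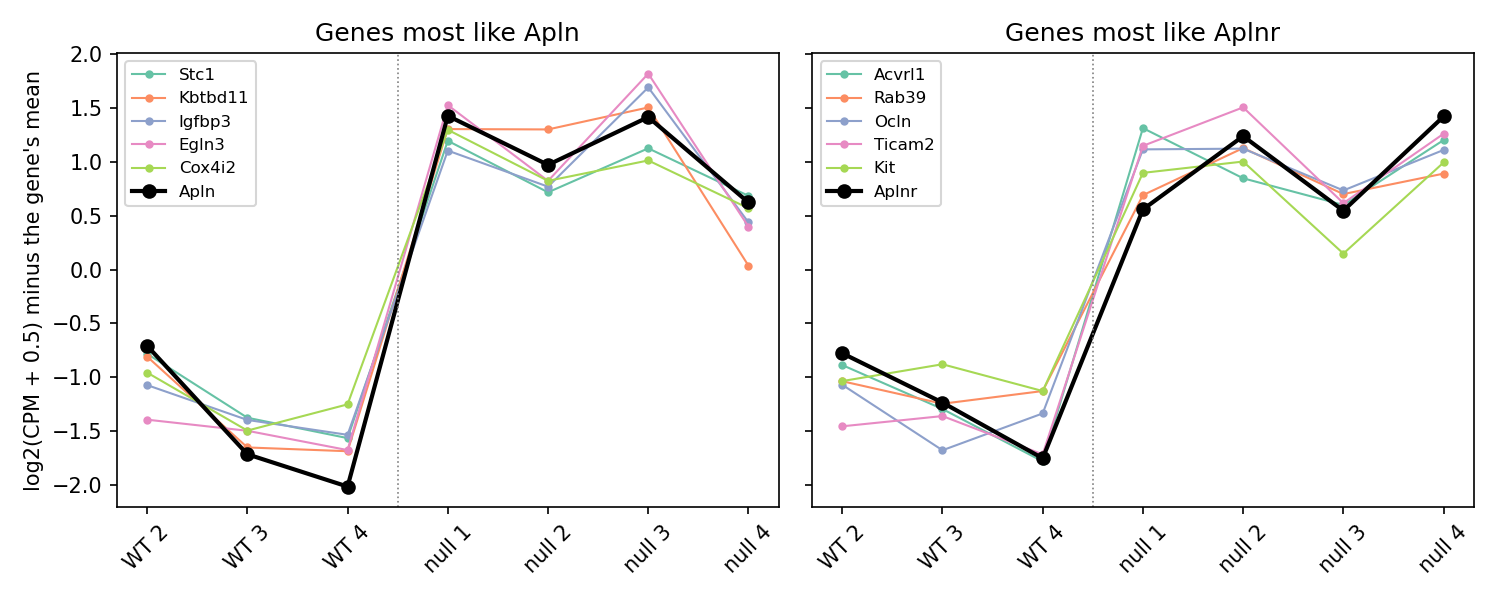
Log2(CPM + 0.5) of each gene minus its mean over the 7 libraries, for Apln and Aplnr (black) and the 5 genes most like each, with wild-type libraries left of the dotted line. All lines rise from wild type to null, and Apln and each of its 5 neighbours have their highest point in null pool 1 or 3.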

How the data were processed

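RNA of 7 pools of atrioventricular canals was depleted of ribosomal RNA, amplified for 8 cycles of PCR and sequenced as unstranded single reads of 50 nt, per the labels' protocols. The authors deposited whole-number read counts per gene symbol, 1 file per library. TopHat2 2.0.13, HTSeq and SAMtools with build mm9 were used, per the submitters' processing notes. Neither the gene annotation nor the options of the counter is given in the sources used here. The 5 summary lines of each file were left out, and reads aligned to several places (9.08% to 13.8% of all counted) are in no gene. Without molecular identifiers, intervals and floors cover counting error only.

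CPM was computed over gene rows. Genotypes were compared with edgeR 4.0.16 (quasi-likelihood F test, R 4.3.3) with TMM scaling, the default filter (minimum count 10), genotype as the only term and Benjamini-Hochberg adjustment over all genes tested; SE is the log2 fold change over the square root of F. DESeq2 1.42.0, other scalings and filters, a Y-linked covariate, a replicate block and leaving out libraries were alternatives. The scripts were tested on simulated data. The members and lists were chosen with earlier results of these data known. The naming rule took Hand2, both members, Apela, Pecam1, Cdh5, every called gene of each pathway list (or its most abundant gene), the 3 called genes of smallest p in the other lists with any called gene against the majority, and the 5 genes most like each member. Values of 2 list members are not reported here. Exon lengths and overlaps are from GENCODE M21 (GRCm38), matched by symbol.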

Additional observations from a re-analysis of the deposited data

Results flagged for a closer look

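Of 34 sets of 4 null values checked for a single library far from the other 3, 2 were flagged. Chance alone would flag about 1 in 20, so 2 of 34 is about the number due to chance. Both concern genes that were named because they are close to Aplnr in pattern. Ocln was 7.33 CPM in null pool 3, against 9.66 to 9.74 CPM in the other null pools. Kit was 19.99 CPM in null pool 3, against 34.0 to 36.6 CPM in the others. Null pool 3 was also the null pool with the least Aplnr (9.91 CPM), though null pool 1 was next to it (9.99 CPM). Groups of 3 were not checked.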

How the results depend on the processing

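Aplnr and Apela kept their direction in all 15 alternatives each, and the counts of tip cell (5 to 8), endothelial (7 to 12) and low-oxygen genes (16 to 26) called higher stayed within 1.5 times. Aplnr and the lists were chosen with this contrast known, and the alternatives reuse the same libraries, so this is a description only. The tip cell counts include genes tested only through the null pools. The genes called higher and lower numbered 993 and 768 with DESeq2, 365 and 104 with the Y-linked covariate, and 298 and 123 when null pool 2 and wild-type pool 4 were both left out, a choice made after seeing the data. With 1 library left out they were 210 and 46 for wild-type pool 2, then 246 and 68 (wild-type pool 3), 284 and 90 (null pool 1), 389 and 150 (null pool 2), and 946 and 652 (null pool 3). Apln was at 4.14 with the Y-linked covariate and ranged from 2.77 to 4.27 with 1 library left out. Apln relative to low-oxygen genes was 0.23 with 2 added to each CPM. Pathway genes called higher were 2 with DESeq2 and 1 to 3 with 1 library left out (3 only for null pool 4). Those lower were 2 without a filter, 4 with DESeq2, 0 with the covariate, and 0 to 2 with 1 library left out (0 for null pools 1 and 2 and wild-type pools 2 and 3, otherwise 2). Gnaq, near 0, changed sign to -0.0037 with upper-quartile scaling, -0.057 with the covariate, -0.076 without null pool 4 and -0.057 without wild-type pool 3, and ranged from -0.076 to 0.078 with 1 library left out. The causes were not tested.

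Same-numbered pools shared deviations across genes with r of -0.09, 0.36 and 0.23 for numbers 2, 3 and 4. Wild-type pools 3 and 4 correlated best with the null pool of their number, but wild-type pool 2 with null pool 4 (r = 0.08). The numbers were not taken to pair the samples in the main fit, a question that these values do not settle. With the replicate block 814 genes were higher and 565 lower, pathway genes called higher were 2, Apln was 3.24 and Aplnr 2.48. Of 26 called genes named, 6 lost their call in at least 1 alternative. Most of them were named for their call, a small p or a pattern like a member's, which favours keeping the call. Ace, Kcne3 and Ticam2 among them were tested only through the null pools, so the count is no measure of how firm the calls are. Depth limits Apln most in wild type, with 6 to 57 reads.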
